A study of Homo sapiens with 6 samples.

Results

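The core genes of YAP and TEAD signalling were followed in HOK-16B cells, human oral keratinocytes (epithelial cells of the mouth lining) that were immortalized to grow as a line. The set holds 10 of the 58735 genes in the deposited table, chosen by name: the coactivator genes YAP1 and WWTR1 (which encodes TAZ), the DNA-binding partners TEAD1, TEAD3 and TEAD4, the inhibitory kinases LATS1 and LATS2, and AMOTL2, CCN1 and CCN2. The choice was made with earlier results of these data known. All 10 were found by symbol, CCN1 and CCN2 under the older names CYR61 and CTGF in GENCODE 29. The cells were pretreated with cannabidiol (CBD), a non-intoxicating cannabis compound, or with vehicle, and then given an inflammatory stimulus that the labels do not name, and dose and time are not given either. There were 3 CBD and 3 vehicle libraries of total RNA from this 1 line, so each value compares CBD with vehicle in stimulated cells, and no unstimulated group was analysed here. The labels do not say that the replicates were separate cultures, and the p-values measure the spread between these libraries, which may be technical.

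In the Hippo pathway the kinases STK3 and STK4 (MST2 and MST1), with the scaffold SAV1, activate LATS1 and LATS2, which phosphorylate YAP and TAZ and keep them out of the nucleus. YAP and TAZ that reach the nucleus bind TEAD proteins, which carry them to DNA. CCN1 and CCN2 encode secreted matrix-associated proteins and are widely used readouts of that complex, and AMOTL2 and LATS2 are both inhibitors of YAP and known targets of it, a negative feedback. In stratified epithelia the pathway is known for its part in basal cell proliferation and in the response to cell density and stretch. Much of its control acts on protein phosphorylation and location, which RNA levels do not measure.

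The letters of the core TEAD site, GGAATG or its reverse complement CATTCC, were searched on both strands of RefSeq promoter windows (GRCh38.p14, 250 bases before to 50 after each annotated start). Windows were found for 7 of the 10 genes, and for TEAD1, TEAD4 and CCN1 none was used. The letters were present in 4 of their 10 windows (YAP1, LATS2, AMOTL2 and CCN2), against 14.03% of all 35116 windows. CCN2 held them 3 times, a count reached by 0.128% of all windows. The stretch before its start is shown because CCN2 is the readout gene here with the densest set of these letters, and single sites of YAP1, AMOTL2 (1 of its 2 annotated starts) and the target gene THBS1 are shown beside it. THBS1 is an example, as 9 target genes outside the set held the letters, in 9 of 32 windows (28.12%). The target gene F3 was not among them. Capitals mark the site letters, and each sequence reads 5′ to 3′ on the gene's strand.
CCN2, chr6:131951373-131951622, minus strand: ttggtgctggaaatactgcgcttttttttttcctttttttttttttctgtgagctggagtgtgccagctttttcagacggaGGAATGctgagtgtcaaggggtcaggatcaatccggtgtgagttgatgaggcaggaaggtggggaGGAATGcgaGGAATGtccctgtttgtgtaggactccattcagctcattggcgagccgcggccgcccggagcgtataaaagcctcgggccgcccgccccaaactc
YAP1, chr11:102110273-102110302, plus strand: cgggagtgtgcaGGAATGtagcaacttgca
AMOTL2, chr3:134374499-134374528, minus strand: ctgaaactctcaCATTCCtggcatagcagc
THBS1, chr15:39581021-39581050, plus strand: gaggaatccccaGGAATGcgagcgcccctt
In CCN2 the sites begin 169, 104 and 95 bases before the start, in YAP1 162, in AMOTL2 69 and in THBS1 46. LATS2 held the letters within the 50 bases after its start. A match is a description of the letters and says nothing about binding in these cells.

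The libraries held 18213784 to 22158614 gene-assigned fragments, worked back from FPKM (fragments per kilobase of gene, scaled to library depth). All 8 keratinocyte markers examined were abundant, with KRT5 at a mean of 3104 FPKM in vehicle and 3556 in CBD. PDGFRA, CD3E, MS4A1 and TYR, markers of fibroblasts, leukocytes and melanocytes, were at 0 in every library, and the summed endothelial markers stayed at or below 0.159 FPKM. The summed fibroblast markers were 6.94 to 7.70 FPKM in vehicle and 8.94 to 8.99 in CBD, nearly all of it COL1A1, and their part in the results was not tested. The leukocyte markers summed to 2.13 to 3.05 FPKM in vehicle and 2.18 to 3.15 in CBD, and the melanocyte markers to 1.02 to 1.53 and 1.41 to 1.603. Base composition moved with treatment as well, since the GC content of the transcripts, weighted by fragments, was 49.6% to 50.3% in vehicle and 50.7% to 50.8% in CBD. Across 12510 genes, which are not independent, the log2 difference increased with GC content, from a median of -0.17 in the poorest decile to 0.24 in the richest (Spearman 0.67). The differences of the 10 genes are therefore given as deposited and after the GC trend of every library had been subtracted, and so are those named from the wider lists. The part of GC content in any single difference was not tested otherwise.

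With CBD, CCN1, CCN2, TEAD3 and AMOTL2 stood at higher levels and WWTR1, TEAD1, TEAD4 and LATS1 at lower ones. YAP1 had nearly the same mean, and LATS2 overlapped between groups. None of these differences passed the test over all genes. With the GC trend removed, TEAD3 and AMOTL2 were no longer higher. In such bulk samples a smaller share of expressing cells and less RNA per cell cannot be told apart. By limma on log2(FPKM + 1), 0 of the 10 genes had a Benjamini-Hochberg adjusted p under 0.05, where 0.352% of the 12517 genes tested did, 0.256% higher and 0.0959% lower. The adjusted p ran from 0.0588 (CCN1) to 0.956 (YAP1). The unadjusted limma p was under 0.05 for 8 of the 10, 4 higher and 4 lower, where 31.4% of all tested genes had one, and for 6 with the GC trend removed, against 18.2%. In the same 8 the groups were fully separate, 4 above and 4 below, against 40.7% of all tested genes (18.7% above and 21.9% below). The median log2 difference was 0.03, with -0.01 over all tested genes, and the median size regardless of sign was 0.20 against 0.13. By limma-voom on the recovered fragments, CCN1, TEAD1, LATS1 and WWTR1 passed (adjusted p = 0.0148, 0.0359, 0.0328 and 0.0371), 4 of 10 where 13.9% of all tested genes did. As the 10 genes were chosen with earlier results of these data known, these shares are no independent evidence about the set. Without vehicle replicate 2, CCN1, TEAD1, LATS1 and TEAD3 passed by limma (adjusted p = 0.0236, 0.0239, 0.0456 and 0.0416), and 2351 of all genes did. Without any other single library, 0 of the 10 passed. Few genes of any kind passed in those fits. The count over all 12517 was 81 when vehicle replicate 1 was dropped, 1 for CBD replicate 3 and 0 for each remaining library. The 0 there does not set the 10 genes apart.

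**Figure D1:**
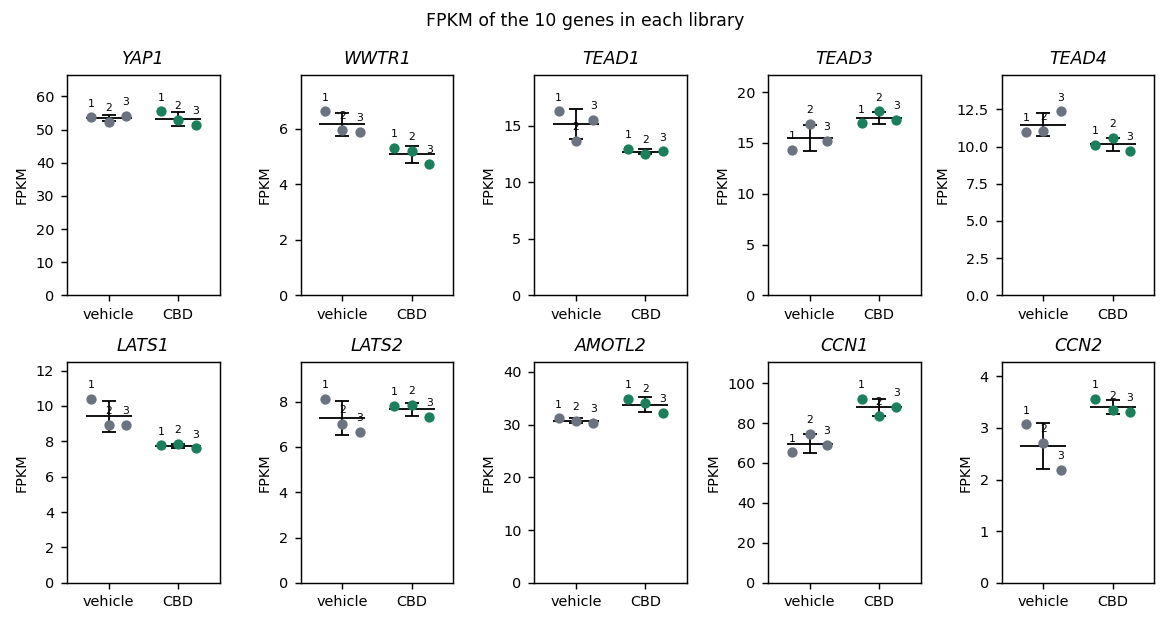
FPKM of each of the 10 genes (vertical axes, all from 0) in the 3 vehicle and 3 CBD libraries, with the replicate number beside each point and the mean and SD as lines. The CBD points lie above the vehicle points for CCN1, CCN2, AMOTL2 and TEAD3, below them for WWTR1, TEAD1, TEAD4 and LATS1, and overlap them for YAP1 and LATS2.

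YAP1 (ENSG00000137693, chromosome 11, 102110461 to 102233423 in GENCODE 29 on GRCh38) ranked 623 in mean FPKM among the 12517 tested genes. Its level was 53.7, 52.4 and 54.1 FPKM in vehicle replicates 1 to 3 and 55.5, 52.8 and 51.5 FPKM in CBD replicates 1 to 3. The groups overlapped throughout, at 53.4 ± 0.904 and 53.2 ± 2.04 FPKM (SD, n = 3). The log2 difference was -0.0045 ± 0.047 (SE) on the log2(FPKM + 1) scale, with a 95% interval of -0.12 to 0.11. With the GC trend removed it was 0.06 (limma adjusted p = 0.454).

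WWTR1 (chromosome 3, 149517235 to 149736714), the gene of the YAP relative TAZ, had 6.63, 5.96 and 5.90 FPKM in vehicle and 5.33, 5.20 and 4.74 FPKM in CBD. Each CBD library lay below each vehicle library, and the means of 6.17 ± 0.406 and 5.09 ± 0.308 FPKM differed by -17.4%. The log2 difference was -0.23 ± 0.07 (SE; limma adjusted p = 0.0833) and -0.21 with the GC trend removed (adjusted p = 0.161). WWTR1 has a GC content of 49.0%, near the 48.9% median of tested genes. The FPKM of YAP1 was 8.09, 8.79 and 9.17 times that of WWTR1 in the vehicle libraries and 10.4, 10.1 and 10.9 times in the CBD libraries (exact permutation p = 0.1, the smallest that 3 against 3 allow, and 0.15 when adjusted over the 12 ratios and sums computed). This ratio within a library does not depend on scaling between libraries, and in every CBD library it exceeded every vehicle library. The sum of both, 59.6 ± 1.06 FPKM in vehicle and 58.3 ± 2.32 in CBD, overlapped between groups, as YAP1 made up most of it.

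Among the TEAD transcription factors TEAD1 (chromosome 11, 12674591 to 12944483) had 16.3, 13.7 and 15.5 FPKM in vehicle and 12.9, 12.5 and 12.7 FPKM in CBD. All CBD values lay below all vehicle values, and vehicle replicate 2 came closest to the CBD libraries. The log2 difference was -0.23 ± 0.07 (SE; limma adjusted p = 0.0866) and -0.12 with the GC trend removed. TEAD1 is a GC-poor transcript at 42.8%. TEAD4 (chromosome 12, 2959330 to 3040673) had 10.98, 11.1 and 12.4 FPKM in vehicle and 10.1, 10.6 and 9.73 FPKM in CBD, again without overlap, though by a narrow margin. Its log2 difference was -0.16 ± 0.06 (SE; limma adjusted p = 0.132). TEAD4 has the highest GC content of the set, 62.7%, and lay below 0 where the GC-richest decile of genes lay above it. With the GC trend removed its difference was -0.38 ± 0.07 (limma adjusted p = 0.0887), larger than as deposited and the largest in size of the 10 on that scale. TEAD3 (chromosome 6, 35473597 to 35497076) had 14.3, 16.9 and 15.2 FPKM in vehicle and 16.9, 18.1 and 17.3 FPKM in CBD. Vehicle replicate 2 and CBD replicate 1 were nearly equal, so the groups were barely apart. Its log2 difference was 0.17 ± 0.07 (SE; limma adjusted p = 0.147) as deposited and -0.0069 with the GC trend removed, so its sign was not kept.

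The fourth family gene, TEAD2, which is outside the set and was named for its role after its values were seen, had 10.2, 13.3 and 13.3 FPKM in vehicle and 14.5, 13.4 and 13.7 FPKM in CBD. Its log2 difference was 0.17 (limma adjusted p = 0.268), and 0.04 with the GC trend removed. Summed over TEAD1 to TEAD4, the level was 54.4 ± 2.33 FPKM in vehicle and 54.2 ± 0.603 in CBD, a difference of -0.374% with overlapping groups (exact permutation p = 0.8). Within that sum TEAD1 took 24.9% to 31.4% of it in vehicle and 22.9% to 23.8% in CBD, and TEAD4 20.2% to 21.9% and 18.2% to 19.4%. TEAD3 took 26.99% to 30.7% in vehicle and 31.1% to 33.2% in CBD, and TEAD2 19.8% to 24.2% and 24.5% to 26.6%. None of these 4 shares overlapped between groups (exact permutation p = 0.1 each, 0.15 adjusted). As 0.1 is the smallest p that 3 against 3 allow, no share could have passed at 0.05. The 4 shares are parts of 1 sum in each library, so they are not separate observations. TEAD2 and TEAD3 are GC-rich (58.3% and 60.3%) and TEAD1 is GC-poor. The gap between the differences of TEAD3 and TEAD1 was 0.40 on the log2 scale as deposited and 0.12 with the GC trend removed.

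**Figure D2:**
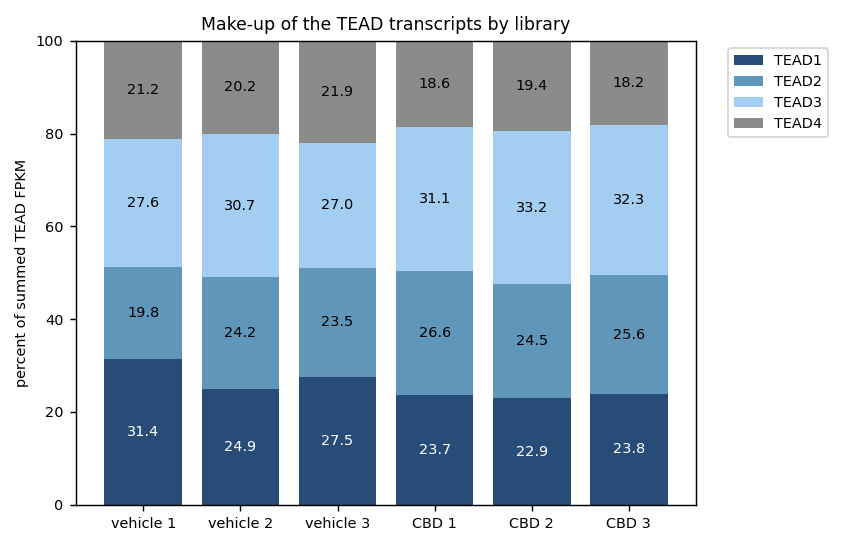
Share of each TEAD gene (vertical axis, percent of the summed FPKM of TEAD1 to TEAD4) in each of the 6 libraries. TEAD1 and TEAD4 have smaller shares and TEAD2 and TEAD3 larger ones in all CBD libraries, while no 1 of the 4 genes exceeds 33.2% of the sum in any library.

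Of the kinases that inhibit YAP and TAZ, LATS1 (chromosome 6, 149658153 to 149718256) had 10.4, 8.91 and 8.90 FPKM in vehicle and 7.76, 7.85 and 7.60 FPKM in CBD. The CBD libraries were tightly grouped below the vehicle libraries, of which replicate 1 was the highest. The means were 9.41 ± 0.867 and 7.74 ± 0.129 FPKM, a log2 difference of -0.25 ± 0.07 (SE; limma adjusted p = 0.0792). LATS1 is the GC-poorest of the 10 genes, at 42.1%, and its difference was -0.13 with the GC trend removed (adjusted p = 0.224). LATS2 (chromosome 13, 20973032 to 21061547) had 8.14, 7.02 and 6.68 FPKM in vehicle and 7.82, 7.86 and 7.33 FPKM in CBD. Vehicle replicate 1 was above every CBD library and the other two were below, so the groups overlapped, with a log2 difference of 0.07 (95% interval -0.11 to 0.25). It was 0.03 with the GC trend removed, 0.14 without vehicle replicate 1 and 0.02 without vehicle replicate 3. LATS2 stood at 0.750 to 0.788 of the LATS1 level in vehicle and at 0.964 to 1.007 in CBD (exact permutation p = 0.1, 0.15 adjusted). The log2 gap between the differences of LATS2 and LATS1 was 0.32 as deposited and 0.16 with the GC trend removed. AMOTL2, an angiomotin-like scaffold that binds YAP and holds it at cell junctions (chromosome 3, 134355874 to 134375479), had 31.2, 30.8 and 30.3 FPKM in vehicle and 34.9, 34.1 and 32.2 FPKM in CBD. The CBD values lay above the vehicle values, by a log2 difference of 0.13 ± 0.05 (SE; limma adjusted p = 0.128). With the GC trend removed the AMOTL2 difference was -0.03 (adjusted p = 0.808), on the other side of 0, and the gene's GC content is 59.6%.

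The 2 CCN genes had the largest differences on the higher side. CCN1 (ENSG00000142871, chromosome 1, 85580761 to 85583962), an integrin-binding matrix protein gene, had 65.3, 74.6 and 69.3 FPKM in vehicle and 92.2, 83.7 and 88.0 FPKM in CBD. The lowest CBD library stood clearly above the highest vehicle library, and the means of 69.7 ± 4.64 and 88.0 ± 4.29 FPKM differed by 26.2%. The log2 difference of 0.33 ± 0.07 (SE; 95% interval 0.18 to 0.49) had the smallest p of the set without passing (limma adjusted p = 0.0588). It was 0.29 with the GC trend removed (adjusted p = 0.0860), and between 0.26 and 0.38 over 20 alternative settings. Over genes that averaged 5 FPKM or more, CCN1 passed (limma adjusted p = 0.0366), where 732 of the 7275 genes tested did. It passed in 4 of the 20 alternative settings. Per unit of YAP1, CCN1 stood at 1.22 to 1.42 in vehicle and 1.58 to 1.71 in CBD (exact permutation p = 0.1, 0.15 adjusted). The log2 gap between the differences of CCN1 and YAP1 was 0.34 as deposited and 0.23 with the GC trend removed.

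CCN2 (ENSG00000118523, chromosome 6, 131948176 to 131951373), known as connective tissue growth factor, was the least abundant of the set. It had 3.07, 2.71 and 2.18 FPKM in vehicle and 3.57, 3.34 and 3.32 FPKM in CBD, or 164, 139 and 100 fragments against 199, 181 and 160. The groups did not overlap, and the vehicle libraries were more scattered than the CBD libraries. The means of 2.65 ± 0.447 and 3.41 ± 0.137 FPKM differed by 28.5%, nearly as in CCN1, with a log2(FPKM + 1) difference of 0.28 ± 0.10 (SE; limma adjusted p = 0.112) that the added 1 makes smaller for such a low gene. With the GC trend removed it was 0.27 (adjusted p = 0.237), and without vehicle replicate 3, the lowest library, 0.18. CCN1 exceeded CCN2 by 21.3 to 31.8 times in vehicle and 25.02 to 26.5 times in CBD, ranges that overlap.

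**Figure D3:**
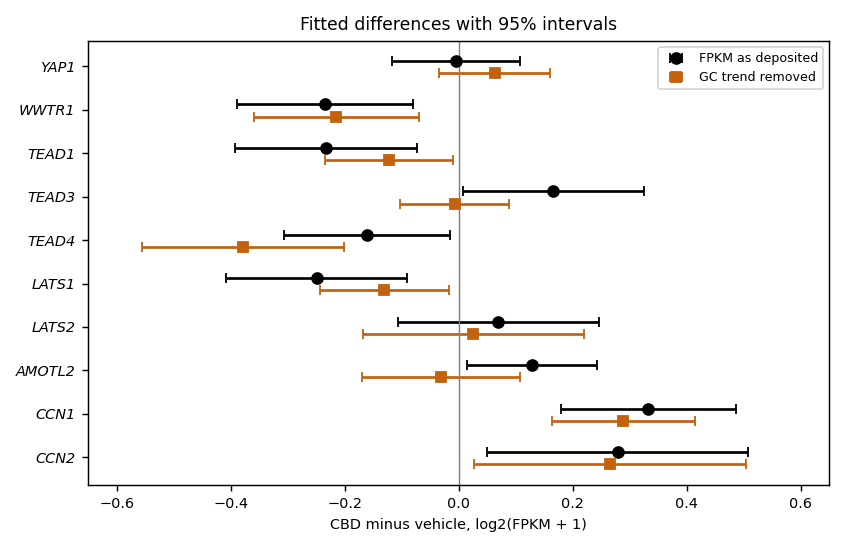
Fitted CBD minus vehicle differences on the log2(FPKM + 1) scale (horizontal axis) for the 10 genes, as deposited (circles) and with the GC trend removed (squares), with 95% intervals from limma. CCN1, CCN2, WWTR1, TEAD1, TEAD4 and LATS1 keep their side of 0 in both, whereas YAP1, TEAD3 and AMOTL2 move across it.

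**Figure D4:**
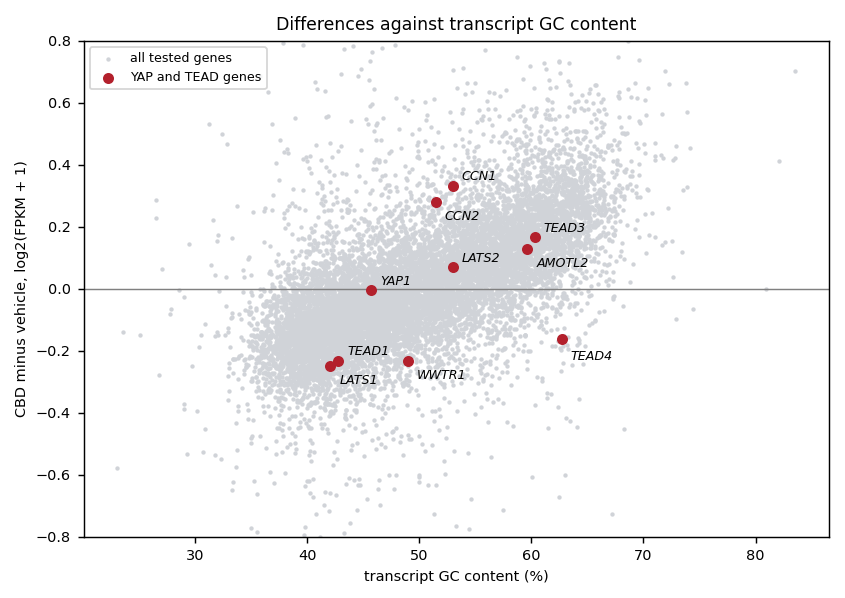
CBD minus vehicle difference on the log2(FPKM + 1) scale (vertical axis, 71 genes beyond 0.8 in size not drawn) against transcript GC content in percent (horizontal axis), for all tested genes in grey and the 10 genes in red. LATS1, TEAD1, YAP1, LATS2, AMOTL2 and TEAD3 lie within the rising band of grey points, CCN1 and CCN2 lie near its upper edge, WWTR1 near its lower edge and TEAD4 below most of it.

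No annotated gene overlapping any of the 10 reached a mean of 1 FPKM. The closest was MIR6827 inside AMOTL2, at 0.864 FPKM over 59 bases. Across the 6 libraries, WWTR1 ran most nearly parallel to GMNN, RNF141 and PTPN13 (Pearson r of log2 values 0.998, 0.996 and 0.991) among the 7275 genes that averaged 5 FPKM or more. The genes most like CCN1 were SOX4, INF2 and CES2 (0.997, 0.996 and 0.995), and those most like CCN2 were ELOB, NABP2 and CD24 (0.990, 0.990 and 0.989). For YAP1 they were KLHL12, MINPP1 and IL15RA (0.946, 0.940 and 0.940). These are descriptions over 6 libraries that share groups, depth and base composition, and 203 genes had an r above 0.95 with WWTR1 and 272 with CCN1.

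The rest of the Hippo pathway was read from a list of 47 upstream kinases, scaffolds, polarity genes and cofactors, of which 39 were abundant enough to test. That list too was drawn up with earlier results of these data known. None passed over all genes by limma, 16 of the 39 had an unadjusted p under 0.05 (6 higher, 10 lower) where 31.4% of all tested genes did, and 4 passed by limma-voom where 13.9% did. The median log2 difference of the 39 was -0.04, and -0.0095 with the GC trend removed, where 5 had an unadjusted p under 0.05 against 18.2% of all tested genes. STK4, STK3, MOB1A, SAV1 and NF2 were named for their role after their values were seen, and none passed. The kinase gene STK4 stood at 13.9 ± 0.971 and 12.2 ± 0.492 FPKM (limma adjusted p = 0.116) and STK3 at 3.15 ± 0.596 and 2.57 ± 0.220 (0.233). The kinase cofactor genes MOB1A and SAV1 had 38.2 ± 4.03 and 34.1 ± 1.32 FPKM (0.220) and 9.03 ± 0.758 and 8.69 ± 0.510 FPKM (0.657). NF2, the gene of the membrane-linked activator merlin, had 4.53 ± 0.627 and 4.53 ± 0.155 FPKM (0.958). Once the GC trend was removed, the log2 differences went from -0.18 to -0.07 in STK4, from -0.21 to -0.05 in STK3 and from -0.16 to -0.03 in MOB1A, and SAV1 and NF2 changed sign (-0.05 to 0.10 and 0.0081 to -0.08).

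FAT1, a giant protocadherin that acts upstream of the kinases, had the smallest p of that list. Its values were 13.0, 11.6 and 13.0 FPKM in vehicle and 10.03, 9.50 and 9.99 FPKM in CBD, without overlap (limma adjusted p = 0.0562). Its log2 difference was -0.32 as deposited and -0.27 with the GC trend removed. VGLL4, which competes with YAP for TEAD binding, had 6.39 ± 0.239 and 7.69 ± 0.0406 FPKM (0.0604), a log2 difference of 0.23 that was 0.09 with the GC trend removed. MOB1B, a second kinase cofactor gene, had 6.32 ± 0.296 and 5.22 ± 0.130 FPKM (0.0636), and AJUBA, a LIM protein that restrains LATS kinases, 53.8 ± 3.58 and 61.9 ± 0.161 FPKM (0.0850). The log2 difference of MOB1B, after removal of the GC trend, went from -0.24 to -0.07 (adjusted p = 0.437) and that of AJUBA from 0.20 to 0.17. The most abundant genes of the list were the 14-3-3 genes YWHAQ and YWHAZ, whose proteins retain phosphorylated YAP in the cytoplasm, at 157 ± 4.24 and 154 ± 0.895 FPKM (0.645) and at 89.2 ± 5.22 and 79.4 ± 1.31 FPKM (0.108). Removal of the GC trend took their log2 differences from -0.03 to 0.05 in YWHAQ and from -0.16 to -0.06 in YWHAZ. FRMD1, RASSF5, FAT4, DCHS1, AMOT, VGLL1, VGLL2 and WTIP lay below the level tested.

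Among other textbook targets of YAP and TEAD, the genes that passed lay on the other side of 0 from CCN1 and CCN2. Of 32 such genes 24 were tested. By limma over all genes, 2 of them fell, F3 and THBS1, and 0 rose, where 0.352% of all tested genes passed and 0.0959% passed on the lower side. An unadjusted limma p under 0.05 was found for 14 of the 24, 4 higher and 10 lower, against 31.4% of all tested genes. With the GC trend removed 11 of the 24 had one, against 18.2%. By limma-voom 10 of the 24 passed, 1 higher and 9 lower, where 13.9% of all tested genes did. F3, the gene of tissue factor, had 15.9, 16.5 and 16.7 FPKM in vehicle and 10.7, 9.78 and 10.5 FPKM in CBD, and fell by 0.62 on the log2 scale (limma adjusted p = 0.0282), and by 0.53 with the GC trend removed (adjusted p = 0.0429). THBS1, the thrombospondin-1 gene, had 65.7, 57.2 and 66.3 FPKM in vehicle and 44.0, 36.9 and 38.8 FPKM in CBD, and fell by 0.65 (limma adjusted p = 0.0452). The list was drawn up with earlier results of these libraries known, the 2 calls among them. Neither the calls nor the counts and median of the list are independent evidence of its direction. THBS1 lost its call with the GC trend removed (-0.61, adjusted p = 0.0657), and without vehicle replicate 1 (0.0518). Both genes lost theirs when vehicle replicate 3 was left out (both 0.167). The same held on dropping CBD replicate 1 (F3 0.128, THBS1 0.160), 2 (0.191 and 0.198) or 3 (both 0.177). The log2 differences stayed at -0.58 to -0.72. Where both genes lost their call, almost every other gene did too. Dropping CBD replicate 3 left 1 call among all 12517 genes, and each of the other fits in which both were lost left 0. The loss there was thus not particular to F3 and THBS1.

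AREG, an EGF receptor ligand gene, stood at 26.7 ± 1.06 and 20.4 ± 1.33 FPKM (limma adjusted p = 0.0539) and NT5E, which encodes the ectonucleotidase CD73, at 7.77 ± 0.815 and 5.24 ± 0.897 FPKM (0.0660). LIMA1, an actin-bundling LIM protein gene, had 36.8 ± 3.08 and 30.6 ± 0.545 FPKM (0.0763), CRIM1 29.4 ± 1.05 and 25.3 ± 1.44 (0.0795) and ANLN, the gene of the cytokinesis scaffold anillin, 50.7 ± 5.26 and 42.6 ± 1.14 (0.0981). Removal of the GC trend took the log2 differences from -0.37 to -0.25 in AREG, from -0.50 to -0.41 in NT5E, from -0.26 to -0.15 in LIMA1, from -0.21 to -0.18 in CRIM1 and from -0.24 to -0.10 in ANLN (adjusted p = 0.0973 to 0.322). On the higher side were GADD45A, a growth arrest gene, at 15.2 ± 1.86 and 19.4 ± 1.37 FPKM (0.0840), and AXL, a receptor tyrosine kinase gene, at 13.0 ± 1.37 and 15.1 ± 0.442 (0.135), and both were named after their values were seen. TAGLN2, an actin-binding protein gene and the most abundant of the list, had 220 ± 26.7 and 245 ± 8.03 FPKM (0.268). The log2 differences of these 3 went from 0.34 to 0.23, from 0.20 to 0.08 and from 0.16 to 0.05 with the GC trend removed. BIRC5 and TNS3, also named after their values were seen, were higher too (limma adjusted p = 0.120 and 0.107). BIRC5 had 25.4 ± 1.47 and 28.3 ± 0.624 FPKM, and TNS3 9.79 ± 0.134 and 10.8 ± 0.238. Their log2 differences went from 0.15 to 0.13 and from 0.13 to 0.05 with the GC trend removed. ANKRD1, another common readout, was near 0, at 0.0298 ± 0.0337 and 0.0357 ± 0.0325 FPKM, and IGFBP3, FOXF2, TGFB2, RBMS3, DLC1, CAVIN2 and SLIT2 also lay below the level tested. The median log2 difference over the 24 genes was -0.08, against -0.01 over all tested genes, and -0.08 with the GC trend removed.

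**Figure D5:**
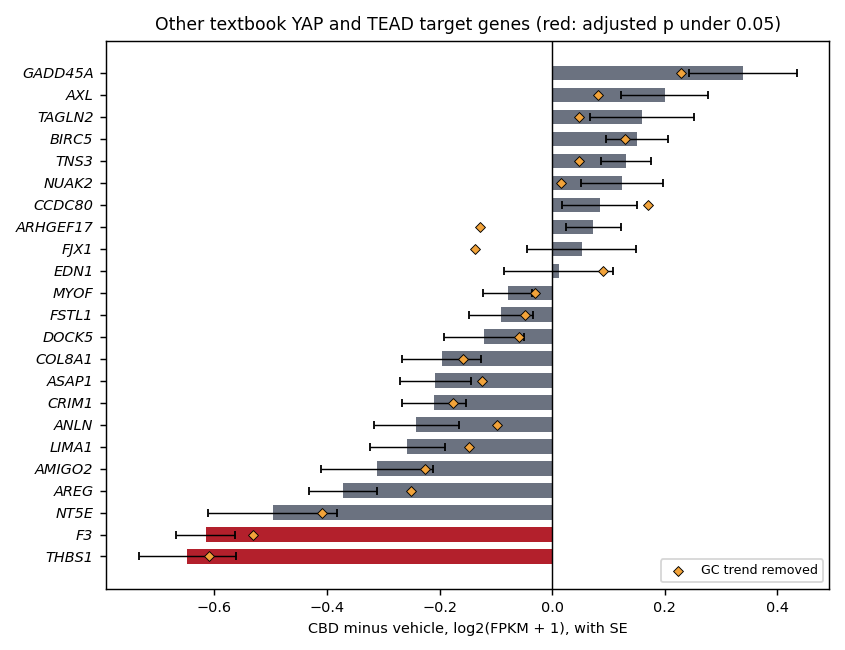
CBD minus vehicle difference on the log2(FPKM + 1) scale (horizontal axis, bars with SE) of 23 of the 24 tested target genes outside the set, with the value after removal of the GC trend as diamonds. F3 and THBS1, in red, are the 2 genes past the threshold and lie farthest below 0, while GADD45A lies farthest above it.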

How the data were processed

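The authors deposited 1 table of FPKM, 1 column per library per the file headers. Alignment with HISAT2 (2.0.5) and counting with featureCounts (1.5.0-p3) are listed in the submitters' processing notes. Build, annotation, strand setting and filters are not given in the sources used here. The free-text description numbers the line differently in each sample, whereas title and cell line tag give HOK-16B throughout. All 58735 identifiers matched GENCODE 29. FPKM times exon-union length gave whole fragments for 100% of values (tolerance 0.01 of a read), hence the totals; 3 reads in a 1 kb gene equal 0.126 to 0.153 FPKM, a floor for counting error only. Without strand information, reads of overlapping genes cannot be told apart.

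limma 3.58.1 (R 4.3.3) was fitted to log2(FPKM + 1) of 12517 genes with mean FPKM of at least 1, group as the only term, intensity trend, two-sided, Benjamini-Hochberg threshold 0.05. The pipeline was tested on simulated counts, which held no GC trend between groups, so that test does not cover the GC trend seen here. The 20 alternatives covered pseudocount, filter, scaling, prior, replicate block, a GC trend (loess, span 0.3), voom, weights and leaving out each library. Exact permutation tests used all 20 splits, two-sided. Members, lists and tests were chosen with earlier results of these data known. Named from each list were genes past the threshold, the 4 others with the smallest p and the 3 most abundant; others are stated as such. A gene of the target list is counted there but not reported here. Python 3.11.15 drew the plots.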

Additional observations from a re-analysis of the deposited data

How the results depend on the processing

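The counts moved with the settings, while most directions held. Over all genes 44 of 12517 were called. With no filter on low values 0 of 31746 were called, and 732 of 7275 at a mean FPKM of at least 5. Of the same 12517, 4 were called with the same sum per library, 73 after quantile normalization and 1 without the trend in the prior. The count was 135 with a robust prior, 8 with the GC trend removed, 1745 with limma-voom and 4252 with library weights. It was 0 to 2351 when 1 library was left out. Of the 10 genes 0 were called, against 1 of the 9 tested at a mean FPKM of at least 5. The count was 4 with limma-voom, 9 with library weights (all but YAP1) and 0 to 4 with 1 library left out. In the Hippo list the count of 0 of 39 became 3 of 31, 4 of 39 and 14 of 39 under the same 3 settings. It was 0 to 8 with 1 library left out. In the target list the count of 2 of 24 became 0 without the trend and 0 of 32 with no filter. At a mean FPKM of at least 5 it was 4 of 22. The count was 1 with the same sum or the GC trend removed, 10 with limma-voom, 12 with library weights and 0 to 8 with 1 library left out. With the replicate block 0 genes were called in all, 0 of them targets, also with the GC trend removed, although 3676 and 2218 genes had an unadjusted p under 0.05. Same-numbered libraries did not deviate together (correlations -0.0027, 0.052 and 0.024), so the numbers were not taken as pairs. The cause of these shifts was not tested.

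WWTR1, TEAD1, TEAD4, LATS1, LATS2, CCN1 and CCN2 kept their sign under each alternative in which they were tested. With the GC trend removed, with or without the block, the log2 difference changed sign in YAP1 (0.063), TEAD3 (-0.0069), AMOTL2 (-0.031), YWHAQ (0.047), SAV1 (0.10) and NF2 (-0.076). YAP1, near 0 throughout, was also 0.0045 with median-ratio scaling and ran from -0.034 to 0.019 with 1 library left out, above 0 without vehicle replicate 3 (0.0054) and without replicate 2 (0.0014) or 3 of CBD. SAV1 was 0.0090 with library weights and -0.081 to 0.013 with 1 library left out, above 0 without vehicle replicate 1. NF2 was -0.0049 with the same sum, -0.083 with weights and -0.089 to 0.066 with 1 library left out, below 0 without vehicle replicate 1 and without CBD replicate 1 (-0.015). Of the 10 genes CCN2 had the fewest fragments, 100 to 199 per library, which limits its precision.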
